A study of Sus scrofa with 16 samples.

Results

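Translation initiation and elongation factors are the soluble proteins that bring messenger RNA, initiator tRNA and the ribosome together and then move the ribosome along the message. The genes described are all those on the porcine array whose probe sets carry a single gene symbol starting with EIF or EEF and a digit, without EIF1AX and EIF1AY. A probe set is a group of short array probes that together give 1 value for a transcript. The rule found 62 probe sets for 40 genes among the 24123 probe sets of the array. Of these, 55 probe sets, which still covered all 40 genes, passed the filter on low values (log2 value at or above 4 in at least 4 of 16 arrays) and were tested within the fit over all 11467 tested probe sets.

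The tissues were the diaphragm, the main breathing muscle, and the psoas major, a muscle that flexes the hip, of 8 Iberian pigs aged 211 days. Animals 1 to 4 were males and animals 5 to 8 females. Animals 1, 4, 6 and 7 were on the high feeding level and animals 2, 3, 5 and 8 were under 20% feed restriction, and all were fed the same diet before the restriction. With 1 array for each muscle of an animal, every muscle and feeding level held 4 arrays. The start of the restriction and any castration of the males are not stated in the labels.

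Initiation starts when EIF2, loaded with the initiator tRNA and GTP, joins the small ribosomal subunit together with EIF1, EIF1A, EIF3 and EIF5. The EIF4 group binds the cap of the messenger RNA and unwinds its leader, and EIF4E-binding proteins hold EIF4E back until they are phosphorylated downstream of the kinase complex mTORC1, which senses nutrients and growth signals. EIF2 leaves the ribosome with GDP and is recharged by the EIF2B complex, a step that EIF2 kinases block under stress. During elongation EEF1A1 delivers aminoacyl-tRNA, the EEF1B subunits recharge it, and EIF5A keeps ribosomes from stalling.

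Of the 62 probe sets, 6 had low values and were not tested. These were a probe set each of EIF3D, EIF4EBP2, EIF5B and EEF1A1 and a pair of EIF4E2, and each of these genes kept at least 1 tested probe set. The seventh untested probe set belongs to EEF1A1 and is one of the array's control probe sets, described separately below. Genes such as EEF1A2, EEF2, EIF4EBP1, EIF2AK1, EIF2AK3, EIF2AK4 and EEF2K were not analysed here.

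Array medians lay between 3.56 and 3.62 on the log2 scale, and 11107 to 11243 probe sets per array reached 4. Fast fibre markers were higher in psoas (4 of 6 called, with a mean log2 level of 13.55 to 13.97 over the diaphragm arrays and 14.37 to 14.71 over the psoas arrays) and slow fibre markers lower (6 of 9 called, 12.87 to 13.10 against 12.12 to 12.89). Markers of other cells were lower in psoas for endothelium in 7 of 7 tested genes (7.41 to 8.06 against 6.76 to 7.29), for fibroblasts in 5 of 6 (8.07 to 8.88 against 7.28 to 8.05), for immune cells in 4 of 7 (6.30 to 7.71 against 5.83 to 6.69), for adipocytes in 2 of 3 (7.08 to 9.29 against 6.76 to 7.21), for hepatocytes in 7 of 7 (3.64 to 7.93 against 3.13 to 3.78) and for Schwann cells in 1 of 2 (6.02 to 6.87 against 5.34 to 6.38). Smooth muscle markers had 1 called in each direction of 5 (9.41 to 9.93 against 9.58 to 10.23), CNN1 higher at 2.08 and RGS5 lower at -0.71. That level includes DES, with means of 12.64 in diaphragm and 12.67 in psoas. For erythrocytes 0 of 2 genes were called (5.66 to 7.49 against 5.33 to 6.27). Taking the probe set with the highest mean for each gene, 17.3% of all 4571 genes were called higher in psoas and 12.2% lower. KDR, PTPRC, CD14, LEP and TTR, defining markers of endothelium, immune cells, adipocytes and hepatocytes, were below 4 on every array. The part of these other cells in the muscle differences given next was not tested, and in such whole-tissue samples fewer cells of a type and less RNA per cell cannot be told apart.

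Between the muscles, factor genes were called higher in psoas more often than lower. Limma was run on all 16 arrays without a term for the animal. At an adjusted p under 0.05, 12 of 55 probe sets (21.8%) were called higher in psoas, where 14.6% of all tested probe sets were. In the other direction 3 of 55 (5.45%) were called lower, where 12.4% of all tested probe sets were. Calls in either direction came to 27.3% of the factor probe sets and 27.0% of all, so that the share called was near the background. The median psoas minus diaphragm difference was 0.14 over the factor probe sets and 0.02 over all, and 41 of 55 differences (74.5%) were above 0 against 52.6% of all. Taking the probe set with the highest mean for each gene, 10 of 40 genes were called higher (25.0%, with 17.3% of all 4571 genes) and 1 was called lower (2.50%, with 12.2%).

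**Figure D1:**
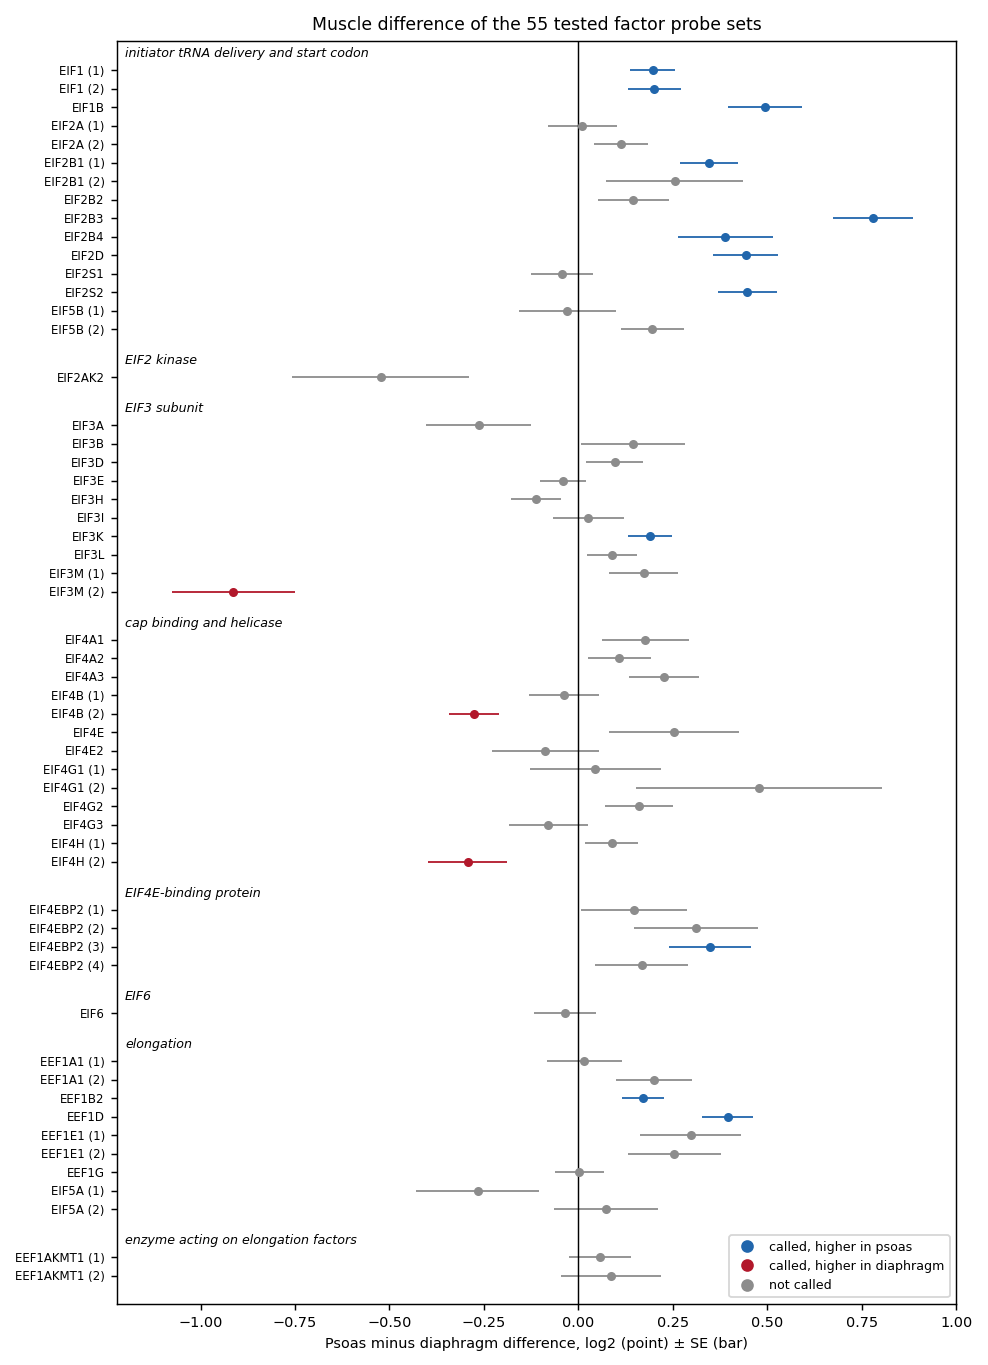
Psoas minus diaphragm difference of each of the 55 tested factor probe sets on the log2 scale, grouped by role, with points for limma's estimate and bars for ± 1 SE over 16 arrays; numbers in brackets tell apart the probe sets of a gene. The called probe sets range from EIF2B3 at 0.78 to EIF3M at -0.91, and 8 of the 12 called higher lie in the first group, the genes of initiator tRNA delivery and start codon choice.

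The genes of initiator tRNA delivery and start codon choice held most of the calls. Of 15 tested probe sets for 11 genes, 8 were called higher in psoas and 0 lower, with a median difference of 0.20. Of all tested probe sets 14.6% were called higher and 12.4% lower. The 8 comprised EIF1 on both of its probe sets, EIF1B, EIF2S2, EIF2D and 3 subunits of the EIF2B complex.

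EIF2B3, the gamma subunit of the EIF2B exchange factor, had the largest difference of the 12. Its diaphragm arrays ran from 5.55 through a median of 5.81 to 6.45, and its psoas arrays from 6.18 through 6.70 to 6.89. Psoas was higher in 8 of 8 animals, and the ranges overlapped because of the diaphragm array of animal 3 at 6.45 and the psoas array of animal 6 at 6.18. The mean was 6.64 ± 0.24 in psoas and 5.86 ± 0.26 in diaphragm (log2, SD, n = 8 each), a difference of 0.78 ± 0.11 (SE) or 1.72-fold (limma, adjusted p = 1.6e-04).

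EIF2B1, the alpha subunit that senses phosphorylated EIF2, was higher in psoas in 8 of 8 animals on its brighter probe set. That probe set ran from 7.40 through 7.65 to 8.01 in diaphragm and from 7.72 through 8.05 to 8.20 in psoas, with overlapping ranges. The difference was 0.35 ± 0.08 (SE), 1.27-fold (limma, adjusted p = 0.00435). Its other probe set, with values of 3.29 to 4.53 over all arrays, differed by 0.25 ± 0.18 and was not called (limma, adjusted p = 0.312).

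EIF2B4, the delta subunit, had a mean of 8.71 ± 0.28 in diaphragm against 9.10 ± 0.20 in psoas (log2 ± SD over 8 arrays) and was higher in psoas in 8 of 8 animals. The difference was 0.39 ± 0.13 (SE), 1.31-fold (limma, adjusted p = 0.0327). EIF2B2, the beta subunit, differed by 0.14 ± 0.09 and was not called (limma, adjusted p = 0.266). Thus 3 of the 4 subunit genes measured were called higher on at least 1 probe set.

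EIF2S2, the beta subunit of EIF2 itself, was among the members whose muscles did not overlap. Its diaphragm arrays ran from 10.43 through 10.74 to 10.83 and its psoas arrays from 10.95 through 11.14 to 11.35, so that every psoas array lay above every diaphragm array. The difference was 0.45 ± 0.08 (SE), 1.36-fold (limma, adjusted p = 0.00101). EIF2S1, the alpha subunit that EIF2 kinases phosphorylate, differed by -0.04 ± 0.08 and was not called (limma, adjusted p = 0.729).

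EIF1B, a close relative of the start codon factor EIF1, ran from 8.95 through 9.24 to 9.63 in diaphragm and from 9.53 through 9.83 to 10.01 in psoas. It was higher in psoas in 8 of 8 animals, and only the diaphragm arrays of the high-feeding animals 4, 6 and 7 reached into the psoas range. The difference was 0.49 ± 0.10 (SE), 1.41-fold (limma, adjusted p = 0.00222). EIF1, which takes part in start codon choice, differed by 0.20 ± 0.06 on its first probe set (limma, adjusted p = 0.0243) and by 0.20 ± 0.07 on its second (limma, adjusted p = 0.0479), each higher in psoas in 8 of 8 animals.

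EIF2D, which can place tRNA on the ribosome without GTP, ran from 6.22 through 6.56 to 6.79 in diaphragm and from 6.64 through 7.04 to 7.36 in psoas. Psoas was higher in 8 of 8 animals with some overlap of the ranges, and the difference was 0.44 ± 0.09 (SE), 1.36-fold (limma, adjusted p = 0.00193). Neither EIF2A probe set was called, at 0.11 and 0.01. The tested EIF5B probe sets, for the factor that joins the large subunit, lay on opposite sides of 0 at 0.20 and -0.03 and were not called (limma, adjusted p = 0.0954 and 0.886).

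**Figure D2:**
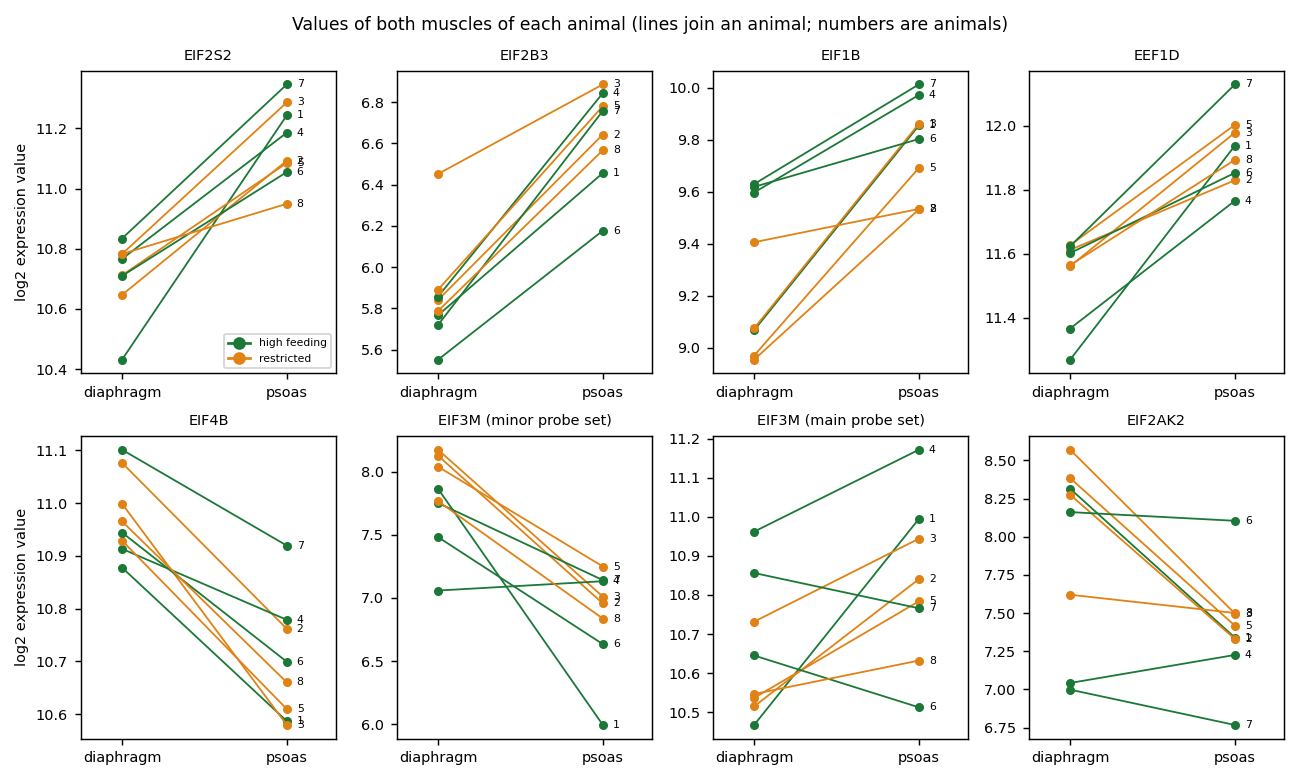
Log2 expression values of both muscles of each of the 8 animals for 8 factor probe sets, with a line joining the muscles of an animal, the animal's number at the right and the colour giving its feeding level; the main EIF3M probe set is the one with the higher mean. EIF2S2 and EEF1D rise in every animal without overlap, EIF4B falls in every animal, and the EIF3M probe sets differ by 0.17 and -0.91.

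The only EIF2 kinase gene analysed was EIF2AK2, the kinase activated by double-stranded RNA. It ran from 6.998 through 8.22 to 8.57 in diaphragm and from 6.77 through 7.38 to 8.10 in psoas. It was lower in psoas in 7 of 8 animals, but the difference of -0.52 ± 0.23 (SE) was not called (limma, adjusted p = 0.109). Its diaphragm arrays stood apart from each other, with animals 1, 2, 3, 5 and 6 at 8.16 to 8.57 and animals 4, 7 and 8 at 6.998 to 7.62.

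EIF3 is the large scaffold of initiation. Of 10 tested probe sets for its 9 subunit genes, 1 was called higher, 1 lower and 8 were not called, with a median difference of 0.06, shares near the 14.6% and 12.4% of all tested probe sets. EIF3K, a peripheral subunit, ran from 11.40 through 11.52 to 11.59 in diaphragm and from 11.57 through 11.71 to 11.85 in psoas, with psoas higher in 7 of 8 animals. The difference was 0.19 ± 0.06 (SE), 1.14-fold (limma, adjusted p = 0.0240).

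EIF3M was the member whose probe sets disagreed most. On the probe set with the lower mean, diaphragm ran from 7.06 through 7.82 to 8.17 and psoas from 5.99 through 6.98 to 7.25. Only the diaphragm array of animal 4, at 7.06, fell within the psoas range, and that animal alone was not lower in psoas. The difference was -0.91 ± 0.16 (SE), 1.88-fold lower (limma, adjusted p = 0.00116). The other EIF3M probe set ran from 10.47 through 10.60 to 10.96 in diaphragm and from 10.51 through 10.81 to 11.17 in psoas, a difference of 0.17 ± 0.09 that was not called (limma, adjusted p = 0.170). Which transcripts the probe sets match was not tested, so that no direction can be given for the gene.

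The remaining EIF3 subunits, EIF3A, EIF3B, EIF3D, EIF3E, EIF3H, EIF3I and EIF3L, were not called. Their differences ran from -0.26 for EIF3A, the largest subunit, to 0.14 for EIF3B, which helps to hold the complex together.

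Cap-binding and helicase genes gave no call higher in psoas and 2 lower among 13 tested probe sets for 10 genes, with a median of 0.09. Of all tested probe sets 14.6% were called higher and 12.4% lower, so that the share called lower was near the background. EIF4B, the partner that speeds the helicase EIF4A, ran from 10.88 through 10.95 to 11.10 in diaphragm and from 10.58 through 10.68 to 10.92 in psoas on its called probe set. Psoas was lower in 8 of 8 animals, and only the psoas array of animal 7, at 10.92, fell within the diaphragm range. The difference was -0.28 ± 0.07 (SE), 1.21-fold lower (limma, adjusted p = 0.00715). The other EIF4B probe set differed by -0.04 ± 0.09 and was not called (limma, adjusted p = 0.793).

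EIF4H, a smaller relative of EIF4B in function, had probe sets on opposite sides of 0. The one with the lower mean ran from 5.84 through 6.25 to 6.51 in diaphragm and from 5.54 through 5.98 to 6.17 in psoas, lower in psoas in 6 of 8 animals. That difference was -0.29 ± 0.10 (SE), 1.23-fold lower (limma, adjusted p = 0.0477). The other EIF4H probe set differed by 0.09 ± 0.07 (limma, adjusted p = 0.373).

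The helicase genes EIF4A1 and EIF4A2 were not called, at 0.18 ± 0.12 and 0.11 ± 0.08 (SE; limma, adjusted p = 0.268 and 0.354). EIF4A3, which sits in the exon junction complex, differed by 0.23 ± 0.09 with psoas higher in 7 of 8 animals (limma, adjusted p = 0.0803), and was called when the animal was added as a block (adjusted p = 0.0413). EIF4E, the cap-binding protein, differed by 0.25 ± 0.17 (limma, adjusted p = 0.289), and 3 of 8 animals were higher in psoas. Its relative EIF4E2 differed by -0.09 ± 0.14 (limma, adjusted p = 0.678). The scaffold genes EIF4G1, EIF4G2 and EIF4G3 were not called, with differences from -0.08 to 0.48, the latter from an EIF4G1 probe set near the filter limit with values of 3.29 to 5.70.

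EIF4EBP2, a repressor that competes for EIF4E, was above 0 on all 4 tested probe sets, at 0.15, 0.31, 0.35 and 0.17. One was called: it ran from 5.61 through 5.88 to 6.41 in diaphragm and from 5.75 through 6.35 to 6.48 in psoas, higher in 7 of 8 animals. The difference there was 0.35 ± 0.11 (SE), 1.27-fold (limma, adjusted p = 0.0273), while the other 3 had adjusted p values of 0.172 to 0.457. EIF6, which keeps the ribosomal subunits apart, differed by -0.04 ± 0.08 and was not called (limma, adjusted p = 0.780).

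Among genes grouped under elongation by symbol, 2 of 9 tested probe sets for 6 genes were called higher and 0 lower, with a median of 0.17. Of all tested probe sets 14.6% were called higher and 12.4% lower, and the share called higher was near the background. The group includes EEF1E1, which is not itself an elongation factor. Both called genes encode subunits of the factor that recharges EEF1A. EEF1D, the delta subunit, ran from 11.27 through 11.58 to 11.63 in diaphragm and from 11.77 through 11.92 to 12.13 in psoas, so that the muscles did not overlap. The difference was 0.40 ± 0.07 (SE), 1.32-fold (limma, adjusted p = 9.2e-04).

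EEF1B2, the beta subunit, averaged 13.55 ± 0.07 in diaphragm against 13.72 ± 0.06 in psoas (log2 ± SD over 8 arrays), higher in 8 of 8 animals by 0.17 ± 0.06 (SE), 1.13-fold (limma, adjusted p = 0.0359). EEF1G, the gamma subunit of the same complex, differed by 0.00 ± 0.07 (limma, adjusted p = 0.982). EEF1E1, a scaffold protein of the multi-synthetase complex despite its name, was at 0.30 and 0.25 on its probe sets, neither called (limma, adjusted p = 0.110 and 0.137). EIF5A was at -0.27 on one probe set and 0.07 on the other, neither called (limma, adjusted p = 0.239 and 0.727). EEF1AKMT1, which methylates EEF1A, was not called at 0.06 and 0.09.

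EEF1D and EIF2S2 were the only members for which every psoas array lay above every diaphragm array (2 of 55, 3.64%, with 2.08% of all tested probe sets), and for 0 of 55 did every psoas array lie below (1.63% of all). Psoas was higher in 8 of 8 animals for 10 of 55 probe sets (18.2%, with 11.7% of all) and lower in 8 of 8 for 1, EIF4B (1.82%, with 9.71%).

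EEF1A1 gave different answers by probe set. On the control probe set with this symbol, the diaphragm arrays of animals 1 to 8 measured 13.66, 13.28, 13.47, 13.39, 13.30, 13.39, 13.79 and 13.59, and the psoas arrays 13.25, 13.07, 13.24, 12.93, 12.91, 12.89, 12.64 and 13.07. Psoas was lower in 8 of 8 animals, and no psoas array reached the lowest diaphragm array. The mean difference was -0.48, with an exact two-sided sign-flip permutation p over 8 animals of 0.00781, the smallest that 8 animals can give. When control probe sets were added to the fit, the probe set was 1.40-fold lower in psoas (-0.48 ± 0.10 SE, limma, adjusted p = 0.00307).

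The array has further control probe sets, named for the 5′ and 3′ ends of an EF1-alpha transcript and annotated EF1ALPHA, that are not members. They were lower in psoas in 8 of 8 animals too, by means of -0.51 and -0.42 (exact sign-flip permutation p = 0.00781 each). Psoas of animal 7 had the lowest value of all 16 arrays on each of the 3, at 11.54, 12.64 and 13.04 for the 5′, middle and 3′ probe sets. The EEF1A1 probe sets outside the controls differed by 0.20 ± 0.10 and 0.02 ± 0.10 and were not called (limma, adjusted p = 0.153 and 0.921). EEF1A1 has near-identical gene copies. Which EF1-alpha gene or copy each of these probe sets reads was not tested.

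**Figure D3:**
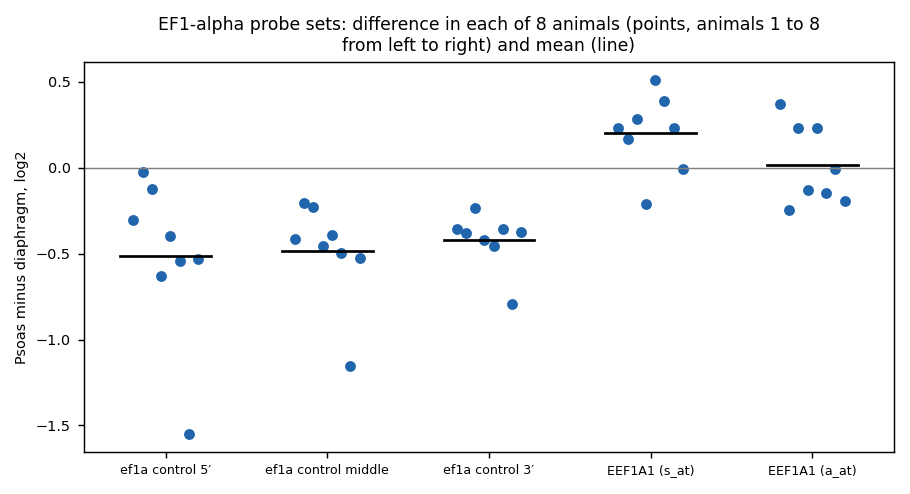
Psoas minus diaphragm difference on the log2 scale in each of the 8 animals (points, animals 1 to 8 from left to right) and its mean (line) for the 3 control probe sets named for EF1-alpha and for the EEF1A1 probe sets that were tested. All 8 points lie below 0 on each control, with means of -0.51, -0.48 and -0.42, while the means of the other probe sets are 0.20 and 0.02.

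Of the 13 member genes with several tested probe sets, 4 had muscle differences of opposite sign (EIF3M, EIF4H, EIF5A and EIF5B) and 5 had probe sets that differed in call (EIF2B1, EIF3M, EIF4B, EIF4EBP2 and EIF4H).

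The muscle differences varied between animals, and so did a sign of RNA quality. The median psoas minus diaphragm difference over the 55 probe sets was 0.31, 0.17, 0.14, 0.16, 0.08, -0.00, 0.12 and 0.07 in animals 1 to 8, and from 27 probe sets in animal 6 to 39 in animal 4 were higher in psoas. The actin control probe sets, for the 3′ and 5′ ends of the actin transcript, differed by 4.28, 4.21, 4.07 and 4.33 in the diaphragm arrays of animals 1, 2, 3 and 5 and by 3.37, 3.49, 3.35 and 3.36 in those of animals 4, 6, 7 and 8. Psoas arrays lay between 3.07 and 3.85. A wider 3′ minus 5′ difference is commonly read as more degraded RNA or shorter labelled product. The EF1-alpha controls gave another order between muscles, with mean psoas minus diaphragm differences of -0.51 at the 5′ end and -0.42 at the 3′ end. Their gap between ends was thus not wider in diaphragm on average, and was widest in psoas of animal 7 (11.54 and 13.04). Among diaphragm arrays that gap was wider in animals 1, 2, 3 and 5 than in the rest. For animal 1 (12.86 and 13.76) it barely exceeded that of animal 6 (12.64 and 13.54).

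In animals 4, 6, 7 and 8, whose diaphragm arrays had the narrower actin difference, 1 of 55 probe sets was called higher in psoas (1.82%, with 1.53% of all tested) and 0 lower (with 2.01% of all), with a median of 0.05. Calls thus fell among all probe sets in these 4 animals, and the factor share was near the background. The called probe set was EIF2B3 at 0.86 ± 0.15 (SE; limma, adjusted p = 0.0323). The differences of EEF1D, EIF2S2, EIF2D, EIF2B1 and EIF3K there were 0.37, 0.36, 0.36, 0.30 and 0.23, none called, and that of EIF1B was 0.27 against 0.72 in animals 1, 2, 3 and 5. In animals 1, 2, 3 and 5, 9 were called higher (16.4%, with 10.3% of all) and 4 lower (7.27%, with 9.45%), with a median of 0.22. EIF2AK2 was then called lower in psoas, at -0.99 ± 0.10 (SE; limma, adjusted p = 0.00417), against -0.06 ± 0.35 in animals 4, 6, 7 and 8. Of the latter, only animal 4 was male and only animal 8 restricted. Of animals 1, 2, 3 and 5, only animal 5 was female and only animal 1 on the high feeding level. The actin difference, sex and feeding level thus cannot be told apart in this split.

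With the actin difference as a covariate over all 16 arrays, 7 probe sets were called higher (EIF2B3, EEF1D, EIF2S2, EIF2D, EIF1B, EIF2B1 and EIF3K; 12.7%, with 10.9% of all tested) and 2 lower (EIF4B and EIF3M; 3.64%, with 9.77%), and the median was 0.08. The share called higher was then near the background. The calls of EIF1 on both probe sets, EIF2B4, EIF4EBP2, EEF1B2 and EIF4H were not kept, with adjusted p values of 0.0786 to 0.221.

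**Figure D4:**
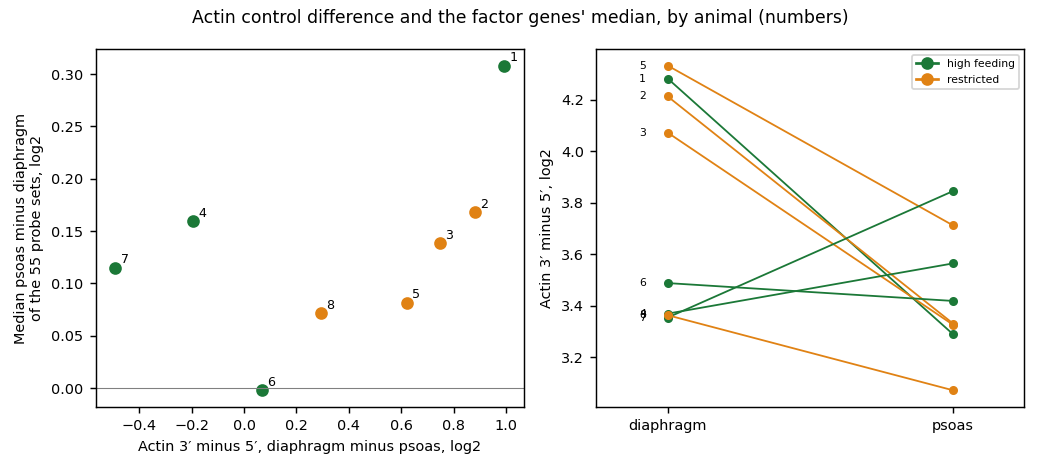
Left, the median psoas minus diaphragm difference of the 55 factor probe sets in each animal (log2) against how much wider the actin 3′ minus 5′ difference was in diaphragm than in psoas (log2). Right, the actin difference of each animal's muscles, joined by a line, with numbers for animals and colours for feeding level. Diaphragm arrays fall at 4.07 to 4.33 and 3.35 to 3.49, and animal 1 has the highest median at 0.31.

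Leaving out each animal in turn, 8 probe sets were called in all 8 fits: EIF2B3, EEF1D, EIF2S2, EIF2D, EIF1B, EIF2B1, EIF4B and EIF3M. The number called higher fell to 6 without animal 2 (10.9%, with 10.1% of all tested) and to 8 without animal 3, 4 or 5 (14.5%, with 9.99% to 11.8% of all). Over all probe sets the number called higher ranged from 1146 to 1600 in these fits, against 1670 with every animal. EIF2B4 lost its call without animal 2, 3 or 4, where its difference was 0.33 to 0.38 (limma, adjusted p = 0.0658 to 0.104), and so did the first EIF1 probe set, at 0.17 to 0.19 (0.0571 to 0.0859). EEF1B2 lost its call without animal 1, 2, 3, 4 or 5, at 0.16 to 0.18 (0.0571 to 0.0956), and EIF3K without animal 2, 5, 6 or 7, at 0.17 to 0.18 (0.0501 to 0.0667). EIF4EBP2 lost its call without animal 1, 2, 5 or 8, at 0.30 to 0.32 (0.0594 to 0.0710). The second EIF1 probe set lost its call in all fits but those without animal 1 or 7, at 0.18 to 0.22 (0.0561 to 0.115), and EIF4H in all but those without animal 6 or 7, at -0.29 to -0.23 (0.0561 to 0.132). Each of these differences kept its direction.

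Within the high feeding level, 3 probe sets were called higher in psoas (5.45%, with 4.39% of all tested) and 1 lower (1.82%, with 4.12%). EIF2B3 was higher by 0.83 ± 0.15, EIF2S2 by 0.52 ± 0.11 and EEF1D by 0.46 ± 0.10, and EIF3M was called lower, at -0.81 ± 0.24 (SE; limma, adjusted p = 0.0066, 0.0134, 0.0134 and 0.0477). With the animal as a block the number called higher was 5 (9.09%, with 8.08% of all tested), EIF1B and EIF2D being added (adjusted p = 0.0345 and 0.0295). The number called higher fell to 1 without animal 1 or 4 (1.82%, with 2.18% and 1.03% of all tested) and to 2 without animal 7 (3.64%, with 1.21%). Calls thus fell among all probe sets too, from 4.39% with every animal. The EIF3M call was kept when animal 4 was left out and lost without any one of the other 7. Over all probe sets 143 to 444 were called lower when an animal was left out, against 473 with every animal. The EEF1A1 control probe set, in the fit that included controls, was called lower at -0.63 ± 0.14 (limma, adjusted p = 0.0147).

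Under restriction, 7 probe sets were called higher in psoas (12.7%, with 5.03% of all tested) and 2 lower (3.64%, with 4.24%). The 7 were EIF2B3, EIF1B, EIF4EBP2, EIF2D, EIF2B1, EIF2S2 and EEF1D, with differences of 0.73, 0.55, 0.50, 0.49, 0.41, 0.37 and 0.33 and adjusted p values of 0.0116 to 0.0495 in limma. EIF4B was called lower at -0.34 ± 0.09 and EIF3M at -1.01 ± 0.24 (SE; limma, adjusted p = 0.0381 and 0.0181). With the animal as a block 8 were called higher (14.5%, with 9.09% of all tested), the first EIF1 probe set being added at 0.24 (limma, adjusted p = 0.0496). The number called higher was 0 without animal 2 or 5 (with 1.42% and 1.85% of all) and 2 without animal 3 or 8 (3.64%, with 1.31% and 3.25%). It was 4 without animal 4 or 6 (7.27%, with 4.57% and 4.64%). With the actin covariate it was 1, EIF2B3 (1.82%, with 1.93% of all). Called lower were 0 without animal 2, 3 or 5 (with 1.32%, 1.33% and 1.45% of all). One, EIF3M, was called lower without animal 4, 6 or 8 (1.82%, with 4.19%, 4.13% and 3.1%). The EEF1A1 control probe set differed by -0.34 ± 0.14 and was not called (limma, adjusted p = 0.131).

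The calls within feeding levels do not show that the muscle difference depended on feeding. When the muscle differences of single animals were compared between feeding levels with limma, 0 of 55 probe sets were called (0.00% of all tested), and 1 had an unadjusted p under 0.05, where 6.07% of all did. That probe set was EIF6, at -0.32 ± 0.14 (SE; limma, adjusted p = 0.807). Its diaphragm arrays lay between 7.41 and 7.63 in all 8 animals. Its psoas arrays measured 7.69, 7.68, 7.41 and 7.80 in the high-feeding animals 1, 4, 6 and 7 and 7.29, 7.13, 7.44 and 7.43 in the restricted animals 2, 3, 5 and 8, so that only animal 6 among the high-feeding animals was as low as the restricted ones.

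The next smallest p values of this test belonged to probe sets of EIF4EBP2 at 0.43, EIF4G1 at 0.72, EIF5A at 0.44, EIF2B1 at 0.44 and EIF4E2 at -0.39, restricted minus high (limma, adjusted p = 0.807 to 0.825). On the 4 EIF4EBP2 probe sets the muscle difference was -0.03, 0.08, 0.19 and -0.05 under high feeding and 0.33, 0.54, 0.50 and 0.38 under restriction. All 4 differed in the same direction, but they read 1 gene in the same arrays and none was called (limma, adjusted p = 0.807 to 0.850).

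Feeding level itself gave no call among the factor genes. Over animal means, 0 of 55 probe sets were called with limma, as were 0 of all 11467 (0.00%), and 7 of 55 (12.7%) had an unadjusted p under 0.05, where 12.7% of all did. The median restricted minus high difference was -0.04 over the factor probe sets and -0.02 over all, and 20 of 55 (36.4%) were above 0 against 46.0% of all. By role, the medians were -0.07 for initiator tRNA delivery, 0.01 for EIF3, -0.11 for cap binding and helicase and 0.04 for elongation.

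EIF2S1, the EIF2 subunit whose phosphorylation slows initiation, had the smallest p, at -0.33 ± 0.10 (SE; limma, adjusted p = 0.301). In psoas it measured 9.63, 9.58, 9.21 and 9.53 in the high-feeding animals 1, 4, 6 and 7 and 9.25, 9.21, 9.02 and 8.83 in the restricted animals 2, 3, 5 and 8. In diaphragm it measured 9.30, 9.54, 9.30 and 9.65 against 9.19, 9.33, 9.10 and 9.19. Restricted animals lay mostly below high-feeding animals in both muscles, with overlap in each.

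EEF1E1 on one probe set had animal means of 5.97 ± 0.09 under high feeding and 5.63 ± 0.17 under restriction (SD, n = 4), without overlap, and a difference of -0.33 ± 0.10 (SE; limma, adjusted p = 0.301). EIF2B1 was the other tested member whose animal means did not overlap, at 7.95 ± 0.06 and 7.75 ± 0.13 (SD, n = 4). Restricted means below high-feeding means without overlap thus occurred for 2 of 55 (3.64%, with 3.31% of all), a share near the background.

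EIF1B differed by -0.32 ± 0.11, the EIF3M probe set with the lower mean by 0.39 ± 0.13, EIF4B on the probe set not called between muscles by -0.31 ± 0.11 and EIF4E by -0.30 ± 0.12 (SE; limma, adjusted p = 0.323 to 0.353). EIF4E had 8.90, 8.28, 7.42 and 7.51 in the psoas of high-feeding animals 1, 4, 6 and 7 and 7.65, 7.58, 7.30 and 7.50 in that of restricted animals 2, 3, 5 and 8. Only the high-feeding males 1 and 4 stood above the restricted range there.

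**Figure D5:**
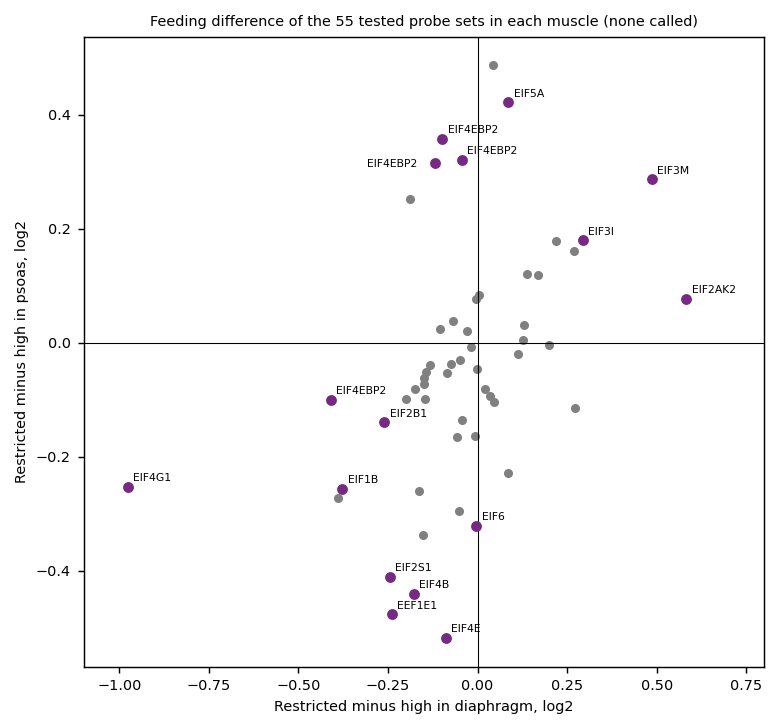
Restricted minus high difference of the 55 tested factor probe sets in diaphragm (horizontal, log2) and in psoas (vertical, log2), as estimated by limma on 8 arrays per muscle, with no probe set called in either. Labelled purple points are the probe sets with the 6 smallest p values in either muscle and those of EIF4EBP2 and EIF2AK2; EIF4G1 lies farthest left at -0.98 and EIF4E lowest at -0.52.

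Within diaphragm, limma called 0 of 55 probe sets by feeding (0.00% of all tested), and 4 (7.27%) had an unadjusted p under 0.05, where 9.60% of all did. The smallest p was that of EIF4EBP2 on the probe set called between muscles, which measured 5.84, 6.07, 6.41 and 6.18 in high-feeding animals 1, 4, 6 and 7 and 5.70, 5.61, 5.63 and 5.92 in restricted animals 2, 3, 5 and 8. The difference was -0.41 ± 0.12 (SE; limma, adjusted p = 0.477), and the groups overlapped through animals 1 and 8. The EIF4G1 probe set near the filter limit measured 4.48, 5.37, 4.85 and 5.14 against 3.86, 3.81, 3.35 and 4.92, a difference of -0.98 ± 0.34 (limma, adjusted p = 0.494).

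EIF3M followed at 0.49, EIF1B at -0.38, EIF2B1 at -0.26 and EIF3I at 0.29 (limma, adjusted p = 0.502 to 0.538). EIF3E was the only tested member whose restricted arrays all lay above the high-feeding arrays in diaphragm (1.82%, with 2.19% of all), at 11.59 to 11.76 against 11.54 to 11.57.

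Diaphragm arrays that differed in the actin controls also differed in some of these values, and the part of RNA quality in them was not tested beyond the fits given here. EIF1B measured 9.07, 8.95, 9.07 and 8.97 in the diaphragm of animals 1, 2, 3 and 5, whose arrays had the wider actin difference, and 9.60, 9.62, 9.63 and 9.41 in that of animals 4, 6, 7 and 8. The called EIF4EBP2 probe set lay at 5.61 to 5.84 in the former and at 5.92 to 6.41 in the latter. The former hold 3 of the 4 restricted animals. With the actin difference as a covariate the median feeding difference in diaphragm moved from -0.05 to 0.00, and 0 probe sets were called.

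Within psoas, limma called 0 of 55 by feeding (0.00% of all tested), and 6 (10.9%) had an unadjusted p under 0.05, where 11.3% of all did. EIF2S1 differed by -0.41 ± 0.11 and EEF1E1, on its other probe set, by -0.48 ± 0.15 (SE; limma, adjusted p = 0.321 and 0.335). EIF5A on its brighter probe set measured 9.50, 9.32, 10.11 and 9.80 in high-feeding animals 1, 4, 6 and 7 and 10.12, 9.85, 10.23 and 10.22 in restricted animals 2, 3, 5 and 8, a difference of 0.42 ± 0.13 (limma, adjusted p = 0.337). Animal 6 alone among the high-feeding animals reached into the restricted range.

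EIF4B on the probe set not called between muscles was the only member whose restricted psoas arrays all lay below the high-feeding ones (1.82%, with 2.56% of all). It measured 10.44, 10.49, 10.52 and 10.71 in animals 1, 4, 6 and 7 and 10.30, 10.37, 9.84 and 9.89 in animals 2, 3, 5 and 8, a difference of -0.44 ± 0.15 (SE; limma, adjusted p = 0.355). EIF6 at -0.32 and EIF4E at -0.52 completed the 6 smallest p values (limma, adjusted p = 0.405 and 0.440).

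Between the sexes, limma called 0 of 55 probe sets over animal means, with 0.183% of all tested called, and 5 (9.09%) had an unadjusted p under 0.05, where 9.17% of all did. EIF5A on its dimmer probe set had the smallest p, with animal means of 7.29 ± 0.24 in females and 8.001 ± 0.34 in males (SD, n = 4) and a female minus male difference of -0.71 ± 0.17 (SE; limma, adjusted p = 0.254). EIF4A1 differed by -0.40 ± 0.13 and EIF4E by -0.34 ± 0.12 (SE; limma, adjusted p = 0.411 and 0.425).

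Translation genes outside the factor families were read from lists of related steps, taking the probe set with the highest mean for each gene. Over all genes read this way 17.3% were called higher in psoas and 12.2% lower, and the counts of each list stand against these shares. Of 9 tested genes of mTORC1 and cap regulation, 2 were called higher in psoas and 0 lower, with a median of 0.05, a share called higher near that of all genes: RRAGA, a GTPase that signals amino acids to mTORC1, at 0.42 ± 0.10, and RHEB, the GTPase that activates it, at 0.42 ± 0.11 (SE; limma, adjusted p = 0.00724 and 0.0110). Of 7 genes for poly(A)-binding proteins and partners, 0 were called, with a median of 0.01. Of 8 genes of the integrated stress response, the program set off by EIF2 phosphorylation, 2 were called higher and 0 lower, with a median of 0.11 and a share called higher that was again near that of all genes. These were ATF4, its central transcription factor, at 0.52 ± 0.10, and ASNS, which makes asparagine, at 1.75 ± 0.45 (SE; limma, adjusted p = 0.00230 and 0.0106).

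Of 4 genes that modify elongation factors, 3 were called higher in psoas and 0 lower, with a median of 0.26. DHPS, which starts the hypusine modification of EIF5A, was at 0.28 ± 0.08, and METTL13, which methylates EEF1A, was at 0.36 ± 0.12 (SE; limma, adjusted p = 0.0192 and 0.0347). Of 17 genes for cytosolic aminoacyl-tRNA synthetases and their scaffold proteins AIMP1 and AIMP2, 5 were called higher and 0 lower, with a median of 0.18. Besides AIMP1 the 5 included MARS, which charges methionine, at 0.42 ± 0.08 and FARSA, a phenylalanine synthetase subunit, at 0.44 ± 0.10 (SE; limma, adjusted p = 0.00232 and 0.00483).

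Factors of mitochondrial translation went both ways, with 1 called higher and 2 lower of 6 and a median of 0.08. MTRF1L, a release factor, was at 0.40 ± 0.10, MRRF, the ribosome recycling factor, at -0.50 ± 0.09 and GFM1, an elongation factor, at -0.39 ± 0.13 (SE; limma, adjusted p = 0.00884, 0.00137 and 0.0379). By feeding level over animal means, limma called 0 genes in each of these 6 lists.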

How the data were processed

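RNA of 2 muscles of 8 pigs was isolated with a kit, turned into biotinylated cRNA and hybridised to 16 Affymetrix porcine arrays, per the labels' protocols. The authors deposited log2 values, 1 per probe set and array. The submitters' processing notes name GCRMA; the version and the set of arrays summarised jointly are not given here. This method makes array distributions alike and compresses low values, which removes a shift common to most genes. No further scaling was applied, and the number of arrays limits the precision.

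Symbols came from the platform annotation (10099 probe sets with 1 symbol, 198 with several, 13826 with none). Of 62 member probe sets, 61 matched the RefSeq gene table of assembly Sscrofa11.1, and 0 symbols changed.

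Tests used limma 3.58.1 (lmFit and eBayes) in R 4.3.3 on probe sets at log2 4 or above in at least 4 of 16 arrays, without the 124 control probe sets. Every adjusted p is limma's, Benjamini-Hochberg adjusted over the 11467 tested probe sets (11551 with controls added), and calls needed an adjusted p under 0.05. Muscles were compared on 16 arrays with covariates for sex and feeding level. These fits, and those of the muscles within a feeding level, held no term for the animal and were thus not paired. The animal was added as a block only as an alternative. Feeding levels and sexes were compared over 8 animal means with the other factor as covariate. Feeding within a muscle was compared on 8 arrays, and the dependence on feeding over per-animal differences. Each list gene was represented by its probe set with the highest mean. The script was tested on simulated data. The members and lists were chosen with earlier results of these data known.

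Both muscles came from the same animals, and the labels' animal numbers give the pairing. Residuals of the paired arrays correlated at 0.0724 to 0.257 in the 8 animals. No arrays held identical values, and arrays of 1 muscle correlated at 0.956 to 0.987.

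Named with values were all members called between muscles, the 6 with the smallest p in each feeding comparison, the 3 by sex, probe sets of a gene that disagreed, paralogs and regulators, and up to 2 called genes per pathway list and direction. The subset of animals 1, 2, 3 and 5 and the fit with controls were chosen after seeing the data, as were EIF2AK2 in subsets and the actin comparison of EIF1B and EIF4EBP2.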

Additional observations from a re-analysis of the deposited data

Results flagged for a closer look

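In 6 of the 98 groups of arrays checked, the highest or lowest array lay far from the rest by Dixon's criterion, which chance meets in about 1 of 20 groups. EIF4EBP2 was at 5.75 in the psoas of animal 3, with the other 7 psoas arrays at 6.19 to 6.48. EIF2B1 was at 7.72 in the psoas of animal 5, with the others at 7.997 to 8.20. EIF2B3 was at 6.45 in the diaphragm of animal 3, with the others at 5.55 to 5.89. EIF2S2 was at 10.43 in the diaphragm of animal 1, with the others at 10.65 to 10.83. EIF1B was at 9.07 in the diaphragm of animal 1, with the other 3 high-feeding diaphragm arrays at 9.60 to 9.63. EIF5A was at 8.39 in the psoas of animal 2 on its dimmer probe set, with the other 3 restricted psoas arrays at 7.46 to 7.58. Without animal 1 EIF2S2 and EIF1B stayed called between the muscles, as did EIF2B3 without animal 3 and EIF2B1 without animal 5.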

How the results depend on the processing

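With the animal as a replicate block, the muscle comparison called 13 factor probe sets higher (23.6%, with 18.2% of all tested) and 3 lower (5.45%, with 15.8%). Under high feeding it called 5 higher (9.09%, with 8.08%). Leaving out each animal in turn, the muscle comparison called 6 to 12 higher (fewest without animal 2) and 2 to 4 lower (most without animal 6), high feeding called 1 to 4 higher and 0 to 1 lower, and restriction 0 to 7 higher and 0 to 2 lower. Over all 11467 tested probe sets, the same fits called 1146 to 1600 higher and 1016 to 1362 lower between the muscles. Under high feeding they called 118 to 484 higher and 143 to 444 lower, and under restriction 150 to 769 and 151 to 650. The actin covariate left 7 higher between the muscles (12.7%, with 10.9% of all), and under restriction 1 higher (1.82%, with 1.93%) and 0 lower (with 1.45%). In animals 4, 6, 7 and 8 alone, the muscle comparison called 1 higher (1.82%, with 1.53%) and 0 lower (with 2.01%). With 1 probe set per gene it called 1 lower (2.50%, with 12.2%). Without the low-value filter, 0 were lower under high feeding (with 1.07%) and 1 under restriction (1.64%, with 1.13%). Without covariates, 4 were higher under restriction (7.27%, with 4.38%). With control probe sets tested, 2 were lower under high feeding (3.57%, with 4.12%). Quantile normalization kept 10 higher (18.2%, with 14.5%) and 2 lower (3.64%, with 12.2%) between the muscles. Of the differences called in the main fits, none changed sign in any of these alternatives. Feeding, sex and the dependence on feeding gave 0 calls among factor probe sets under every alternative run. Where not stated above, the cause of a changed count was not tested. Low values limit what can be seen of EIF4E2, EIF2B1's dimmer probe set and EIF4G1's dimmer probe set.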
